A study of Mus musculus with 9 samples.

Results

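Primary mouse myoblasts that had lost Uqcrfs1 were compared with myoblasts that kept it, both under vehicle, across every gene with enough reads to be tested. The comparison takes 6 of the 9 libraries of the study: the 3 knockout libraries given vehicle and the 3 floxed libraries given vehicle. It covers 15720 of the 55536 annotated genes in the count table. All cells came from myoblasts carrying floxed Uqcrfs1 alleles. The floxed group (labelled uqcrfs1 +/+) received an adenovirus carrying GFP, and the knockout group (labelled uqcrfs1 -/-) received an adenovirus carrying Cre, so the genotype goes together with the virus given and the separate effects of each cannot be told apart. Cells were seeded 72 h after the virus, given DMSO from 24 h after seeding and cultured for 5 days in Ham's F-10 medium with 20% horse serum. Libraries were made with a strand-specific kit from 2 µg of Trizol-extracted total RNA each. The remaining 3 libraries (knockout cells given 7.5 µM oxybutynin, an antimuscarinic drug) entered the fit and its estimate of spread. The labels do not say whether the 3 libraries of a group came from separate mice or cultures, so p-values measure only how far these libraries vary, possibly for technical reasons.

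Uqcrfs1 encodes the Rieske iron-sulphur protein of respiratory complex III, which takes electrons from ubiquinol and passes them to cytochrome c. Without it, ubiquinol cannot be reoxidised by this route, and complexes and dehydrogenases that feed the ubiquinone pool lose their electron acceptor. Myoblasts are the proliferating descendants of muscle stem cells. They leave the cell cycle, fuse and build sarcomeres when they differentiate, and high serum keeps them dividing.

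The 6 libraries held between 19604971 and 25041550 counts. Uqcrfs1 stood at 78.6, 76.5 and 83.6 CPM in the floxed libraries and 2.38, 2.13 and 2.83 CPM in the knockout libraries, where CPM are counts scaled to a common library size after TMM normalisation. The residual level in knockout libraries was 3.08% of the floxed mean. Along the first principal component, which held 78.7% of the variance, the floxed libraries lay between -81.7 and -78.0 and the knockout libraries at 37.7, 17.3 and 43.3. Knockout replicate 2 lay nearest to the floxed libraries. Among the 3838 genes called at least 2-fold different, it had the smallest shift of the 3 knockout libraries in 2429 genes, and it moved the same way as the others in 3837. These genes were called from the same libraries, so agreement in sign among them was largely fixed by that choice. Ribosomal RNA loci took 7.70% to 8.33% of counts in floxed libraries and 9.91%, 7.63% and 11.8% in knockout replicates 1, 2 and 3. Leaving out knockout replicate 2 raised the calls from 4701 higher and 5256 lower to 5398 and 5596.

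Log2 fold changes followed the base composition of the transcripts. In the quintile of protein-coding genes with the lowest transcript GC (up to 44.4%), 170 of 2596 genes were called higher in knockout libraries and 1913 lower. In the quintile with the highest GC (56.05% to 74.2%), 1489 of 2595 were called higher and 186 lower. The median of the lowest quintile was -0.76, -0.58 and -0.90 in knockout replicates 1, 2 and 3 relative to the floxed mean, on the log2(CPM + 0.5) scale, and that of the highest quintile was 0.38, 0.16 and 0.52. All 3 knockout libraries had the slope, replicate 2 the least, and the medians of the floxed libraries lay between -0.02 and 0.02 in both groups. Over the protein-coding genes (genes are not independent of each other), Spearman's rho of the log2 fold change was 0.548 with GC and -0.273 with transcript length. Whether the slope arose in the cells or in the making of the libraries was not tested. A second fit with the GC and length trend removed from each library is therefore given beside the counts of the gene lists. That fit moved the median of all genes from -0.01 to -0.11. It called 3733 genes higher (23.7%) and 5781 lower (36.8%), the shares to set beside list counts with the trend removed. Of the genes called in both fits, 6307 had the same sign and 555 the opposite sign.

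**Figure D1:**
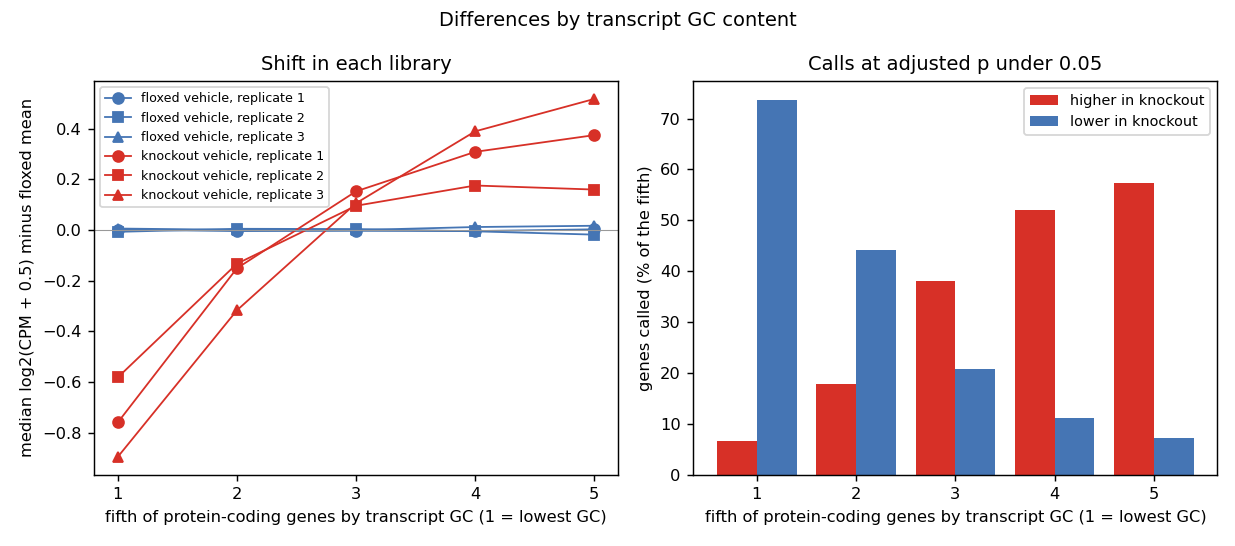
Left, median log2(CPM + 0.5) minus the floxed mean in each of the 6 libraries, for quintiles of protein-coding genes ordered by transcript GC content; right, the share of each quintile called higher (red) or lower (blue) in knockout vehicle. The 3 knockout lines lie lower in the lowest than in the highest GC quintile, replicate 2 with the smallest difference and level over the last 2 quintiles. The 3 floxed lines stay near 0.

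Most of the measured transcriptome differed between the groups. At an adjusted p under 0.05 (edgeR's quasi-likelihood test, Benjamini-Hochberg over all genes), 9957 of 15720 genes were called (63.3%), 4701 higher (29.9%) and 5256 lower (33.4%) in knockout libraries. The groups of libraries did not overlap in 10480 genes (66.7%). Of the called genes, 3494 differed by under 1.5-fold. At least 2-fold differences were called in 1355 genes higher (8.62%) and 2483 lower (15.8%), and 4-fold differences in 351 and 452. The largest changes leaned upward, with 96 genes at least 8-fold higher and 50 at least 8-fold lower. Below, "rose" and "fell" are used only for called genes, and each value after a gene name is its log2 fold change, knockout minus floxed, ± SE unless another unit is given. CPM are given as mean ± SD (n = 3 libraries). Counts over a gene list cover the members that passed the filter on low counts. Unless many listed members went untested, such counts are to be set beside the shares of all genes, 29.9% higher and 33.4% lower.

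**Figure D2:**
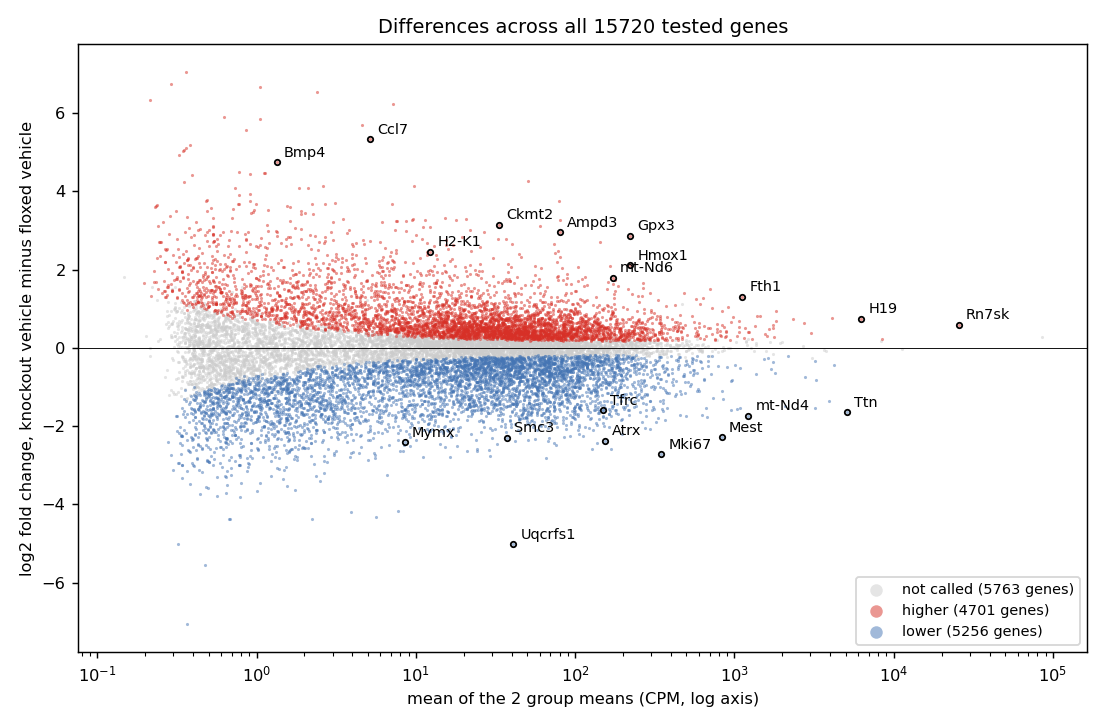
Log2 fold change of each of the 15720 tested genes against its mean level in CPM (log axis), with genes called higher in red, lower in blue and the rest in grey. Uqcrfs1 lies far below genes of similar level, while Gpx3, Ampd3 and Ckmt2 lie among the largest rises above 10 CPM and Hmox1 rises by less than these.

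Classes of RNA differed in how their members moved. Of 12982 tested protein-coding genes, 4458 were higher and 4076 lower. Transcripts of the annotation's TEC class, whose coding status awaits experiment, were lower in 614 of 907 cases and higher in 23, with a median of -1.23. Transcripts annotated inside introns on the sense strand were lower in 83 of 136 cases and higher in 0, with a median of -1.15. Both classes have low GC (medians 41.8% and 42.3%), and their median fold changes were -0.60 and -0.57 with the GC and length trend removed. Long intergenic RNAs were lower in 143 of 407 cases and higher in 61. Of 76 tested small nucleolar RNAs 63 were not called.

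Around Uqcrfs1 itself (chromosome 13, 30540308 to 30545362, minus strand, GRCm38), the 6 nearest tested neighbours moved by much less than the gene itself (-5.02 ± 0.13). On one side lie Agtr1a, Mboat1 and E2f3, and on the other Dusp22, Gm29675 and Exoc2. E2f3, a transcription factor of the cell cycle 554 kb away, fell from 91.3 ± 1.21 to 61.2 ± 7.23 CPM (-0.58 ± 0.09). Dusp22, a phosphatase gene 115 kb away, was at 0.32 ± 0.14 with an adjusted p of 0.0495, and this call was lost in 8 of 17 other settings. Mboat1 (-0.20 ± 0.09), Agtr1a (0.83 ± 0.57), Gm29675 (0.11 ± 0.49) and Exoc2 (-0.11 ± 0.10) were not called.

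By difference in mean CPM, among called genes whose groups did not overlap, the largest increases were in Rn7sk, H19, Eef2, Fn1, Myh9, Lrp1, Fth1 and Ftl1. H19, an imprinted long non-coding RNA of growing muscle, stood at 4697, 4585 and 4781 CPM in the floxed libraries and 7852, 7143 and 8537 CPM in the knockout libraries. Fn1, which encodes fibronectin, rose from 2137 ± 26.2 to 3325 ± 198 CPM, Myh9, a non-muscle myosin heavy chain, rose from 1749 ± 7.65 to 2934 ± 89.1 CPM, and the endocytic receptor gene Lrp1 rose from 1256 ± 24.1 to 2411 ± 200.5 CPM. Eef2, the translocation factor of translation, rose from 3028 ± 32.7 to 5146 ± 829.6 CPM. The largest decreases under the same rule were in Ttn, mt-Cytb, mt-Nd5, Peg3, Malat1, mt-Nd2, mt-Nd4 and Ahnak. Ttn, the giant sarcomere protein titin, stood at 8003, 6958 and 8070.0 CPM in the floxed libraries and 2169, 2984 and 2193 CPM in the knockout libraries. Peg3, an imprinted zinc finger gene, fell from 3081 ± 77.3 to 1106 ± 90.02 CPM, and the nuclear RNA Malat1 fell from 4171 ± 313 to 2379 ± 331 CPM. Rn7sk, Ftl1, Malat1 and Ahnak were no longer called once the GC and length trend was removed, and mt-Nd2 changed sign (0.47).

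RNAs of the mitochondrial genome did not move together. As a whole they took 3.11 ± 0.0333% of all counts in floxed libraries and 2.23 ± 0.417% in knockout libraries. The groups did not overlap, and the two-sided exact permutation p was 0.1, the smallest that 3 against 3 libraries allow (0.138 adjusted over the 11 shares tested). Among the genes at 5 CPM or more, in order along the genome, mt-Nd1 was at -0.08 ± 0.13 and not called, mt-Nd2 fell from 3477 ± 29.7 to 2075 ± 482 CPM, and mt-Co1 was at -0.02 ± 0.10 and not called. Further along the same strand, mt-Nd4 fell from 1882 ± 59.7 to 566 ± 192 CPM, mt-Nd5 from 4766 ± 244 to 1648 ± 324 CPM and mt-Cytb, the only complex III subunit made in the organelle, from 5676 ± 113 to 2198 ± 127 CPM. Of 2 transfer RNA genes of that strand, mt-Tw rose (0.48 ± 0.18) with overlapping groups and mt-Tt was not called (-0.28 ± 0.18). On the opposite strand, mt-Nd6 stood at 79.7, 68.5 and 84.6 CPM in the floxed libraries and 305, 324 and 174 CPM in the knockout libraries, a 3.45-fold rise. The transfer RNA gene mt-Tp, also on that strand, rose from 2.38 ± 0.571 to 10.9 ± 3.60 CPM. It passed the 5 CPM limit, taken on the mean of both groups, only through the knockout libraries. Below that limit on the same strand, mt-Tq was not called (0.20 ± 0.21) and mt-Ta rose (0.84 ± 0.32). The groups did not overlap for mt-Nd2, mt-Nd4, mt-Nd5, mt-Nd6, mt-Cytb or mt-Tp, nor for 66.7% of all tested genes. Once the trend was removed, mt-Nd1, mt-Nd2 and mt-Co1 were called higher (0.96, 0.47 and 0.79), mt-Nd4, mt-Nd5 and mt-Cytb stayed lower (-0.54, -0.45 and -0.46), and mt-Nd6 stayed higher (3.21). How the counting treated strand is not stated in the labels or notes, so RNA antisense to a gene may be counted with it. Genes such as mt-Co2, mt-Co3 and mt-Atp6 were listed at 0.965 to 2.59 CPM in floxed libraries, and since near-identical nuclear copies can take such reads, their values are uncertain. Apart from the rule's mt-Nd2, mt-Nd4, mt-Nd5 and mt-Cytb, these genes were chosen after their values were seen.

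**Figure D3:**
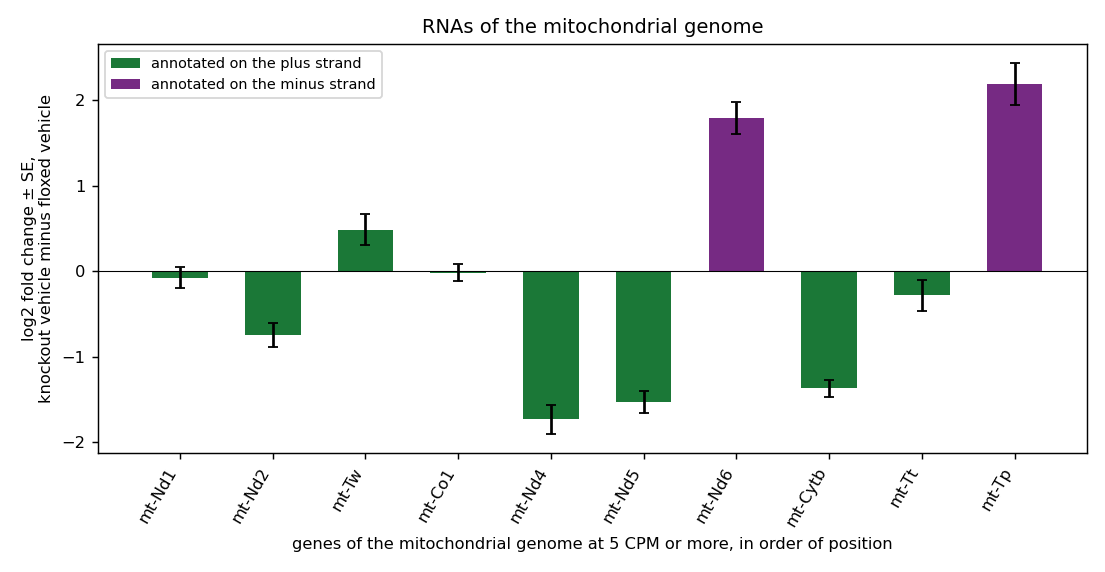
Log2 fold change (bars) and SE (error bars) of the genes of the mitochondrial genome at 5 CPM or more, ordered by position, with plus-strand genes in green and minus-strand genes in purple. Of the minus-strand genes, mt-Nd6 and mt-Tp rise, mt-Tp passing the limit only through its level in knockout libraries. The minus-strand genes mt-Tq (not called) and mt-Ta (higher) lie under the limit. On the plus strand, mt-Nd2, mt-Nd4, mt-Nd5 and mt-Cytb fall and mt-Nd1 and mt-Co1 lie near 0.

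Within complex III, the other nuclear subunits did not share a direction across both fits. Of 10 tested members 4 rose and 2 fell (4 higher and 5 lower with the trend removed), and Uqcrfs1 and mt-Cytb were the ones that fell. The core proteins Uqcrc1 (0.83 ± 0.11) and Uqcrc2 (0.42 ± 0.08), cytochrome c1 (Cyc1, 0.61 ± 0.09) and the small subunit Uqcrq (0.76 ± 0.11) rose, and Cyc1 was not called with the trend removed. The small subunits Uqcrh (-0.07 ± 0.11), Uqcr10 (0.26 ± 0.12), Uqcr11 (0.25 ± 0.23) and Uqcrb (0.01 ± 0.11) were not called. Removing the trend turned Uqcrh (-0.33), Uqcr10 (-0.29) and Uqcr11 (-0.38) into lower calls and Uqcrb (0.56) into a higher one. Of 6 assembly factors 3 rose (3 higher and 1 lower with the trend removed): Uqcc1 (0.64 ± 0.08), Uqcc2 (0.51 ± 0.16) and Bcs1l (0.76 ± 0.10), the ATPase that inserts the Rieske protein. Ttc19, which clears Rieske fragments after insertion, fell (-0.83 ± 0.12). The call on Uqcc2 was lost with the trend removed and without knockout replicate 3 (adjusted p = 0.0519, edgeR).

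Several genes that feed or make ubiquinone rose. Of 10 tested (12 listed) dehydrogenases that reduce ubiquinone, 4 rose and 0 fell (3 higher and 1 lower with the trend removed). Sqor, which oxidises hydrogen sulphide, stood at 4.65, 4.72 and 4.002 CPM in the floxed libraries and 13.5, 11.6 and 12.4 CPM in the knockout libraries. It rose 2.80-fold. Sdhb (0.63 ± 0.09), Sdhc (0.66 ± 0.09) and the pyrimidine enzyme Dhodh (0.43 ± 0.11) rose less, and with the trend removed Sdhb and Dhodh were not called. For ubiquinone synthesis, 8 of 13 tested members rose and 2 fell (6 higher and 4 lower with the trend removed). Coq10a, a ubiquinone-binding protein (1.30 ± 0.18), the kinase-like Coq8a (1.09 ± 0.12), Coq9 (0.94 ± 0.09) and Coq8b (0.88 ± 0.14) rose, and Pdss1, which builds the isoprenoid tail, fell (-1.26 ± 0.13). The median of the list was 0.44, and 0.18 with the trend removed.

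Iron-sulphur cluster genes rose more often than they fell, and haem genes did so by a smaller margin with the trend removed. For cluster assembly, 15 of 23 tested members (24 listed) rose and 2 fell, with a median of 0.40; with the trend removed 13 were higher and 4 lower. The co-chaperone Hscb (1.13 ± 0.16), ferredoxin reductase Fdxr (0.97 ± 0.16), the cluster carrier Nfu1 (0.72 ± 0.09) and the mitochondrial iron importer Slc25a37 (0.65 ± 0.09) rose. In haem synthesis and cytochrome c maturation 5 of 10 tested members rose and 1 fell (4 higher and 3 lower with the trend removed), with the median moving from 0.24 to -0.02. Over all genes the median moved from -0.01 to -0.11. Among the rises were the first enzyme Alas1 (0.69 ± 0.09), Cpox (0.74 ± 0.11) and the last enzyme, ferrochelatase Fech (0.59 ± 0.07). Hccs, which attaches haem to cytochromes c, fell (-0.61 ± 0.11), but not with the trend removed.

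The RNA of the transferrin receptor fell, and the RNAs of ferritin, of the iron exporter and of haem breakdown rose. The transferrin receptor gene Tfrc stood at 225, 229 and 221 CPM in the floxed libraries and 72.8, 89.2 and 60.6 CPM in the knockout libraries, a 3.03-fold fall. Slc40a1, the iron exporter ferroportin, stood at 2.71, 2.53 and 3.07 CPM in the floxed libraries and 26.7, 31.6 and 24.5 CPM in the knockout libraries. The heavy chain of ferritin, Fth1, stood at 617, 642 and 667 CPM in the floxed libraries and 1784, 1221 and 1772 CPM in the knockout libraries. For each of these 3 genes all knockout libraries lay on one side of all floxed libraries, as for 66.7% of all tested genes. Knockout replicate 2 was the nearest to the floxed level for Tfrc and Fth1 but the farthest for Slc40a1. Haem oxygenase Hmox1 rose 4.34-fold (2.12 ± 0.09) and Blvrb, which reduces the biliverdin it makes, rose from 4.85 ± 0.257 to 19.02 ± 2.60 CPM. The haem exporter Flvcr1 fell from 20.4 ± 2.57 to 6.85 ± 1.33 CPM. Ireb2, the iron regulatory protein that stabilises Tfrc RNA when iron is scarce, fell (-1.54 ± 0.10) and Aco1, the other such protein, was not called (-0.08 ± 0.08). Hfe, a partner of the transferrin receptor, rose (2.79 ± 0.24) from under 1 CPM. Ireb2 and Hfe were chosen after their values were seen. In all, 11 of 19 tested members rose and 4 fell, and 11 were higher and 4 lower with the trend removed. Removing the trend left Tfrc at -0.63, Fth1 at 0.84 and Slc40a1 at 3.76, each still called.

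The relay of the integrated stress response, in which kinases phosphorylate eIF2α and the transcription factor ATF4 is translated, rose at its downstream end. The secreted hormone gene Fgf21 stood at 17.2, 13.7 and 15.7 CPM in the floxed libraries and 54.2, 38.5 and 57.3 CPM in the knockout libraries. Atf3 rose from 3.79 ± 0.958 to 19.7 ± 2.89 CPM, the glutathione-degrading Chac1 rose from 23.7 ± 1.11 to 97.7 ± 10.5 CPM, Nupr1 rose from 3.51 ± 0.284 to 15.7 ± 3.17 CPM and the eIF2α phosphatase subunit Ppp1r15a rose from 25.7 ± 1.94 to 83.3 ± 15.7 CPM. None of these groups overlapped, which also held for 66.7% of all tested genes. Atf4 itself, chosen after its values were seen, rose from 380.3 ± 8.13 to 834 ± 89.1 CPM. The kinase Eif2ak1 (-0.01 ± 0.09) and the constitutive phosphatase subunit Ppp1r15b (-0.02 ± 0.07) were not called. In all, 11 of 18 tested members rose and 2 fell, 8 of the rises being at least 2-fold, with a median of 0.67; with the trend removed 10 were higher and 2 lower.

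Most genes of amino acid synthesis and uptake rose as well. For synthesis enzymes, 13 of 17 tested members rose and 1 fell, 9 rises being at least 2-fold, and the median was 1.11 (0.83 with the trend removed), the highest of the 57 lists. Cth, which makes cysteine from cystathionine, rose from 11 ± 1.41 to 69.9 ± 4.93 CPM. Pycr1, the last enzyme of proline synthesis, stood at 17.4, 17.3 and 15.7 CPM in the floxed libraries and 48.95, 47.7 and 60.8 CPM in the knockout libraries. Asns (asparagine; 1.41 ± 0.09), Got1 (aspartate; 1.45 ± 0.08) and Aldh18a1 (proline; 1.38 ± 0.09) rose too. Glul, which makes glutamine, was not called (0.03 ± 0.11). Of 23 tested transporters (25 listed) 14 rose and 6 fell (12 higher and 5 lower with the trend removed). The glycine carrier Slc6a9 rose from 15.4 ± 0.587 to 76.4 ± 12.1 CPM, the neutral amino acid carrier Slc1a4 rose from 42.8 ± 0.459 to 133 ± 10.4 CPM, and both chains of the large neutral amino acid exchanger, Slc7a5 (1.40 ± 0.10) and Slc3a2 (1.33 ± 0.09), rose. The enzymes that charge transfer RNAs differed by compartment in their counts: 13 of 20 cytosolic ones rose and 2 fell (14 higher and 4 lower with the trend removed), against 7 and 3 of 17 mitochondrial ones (4 higher and 4 lower with the trend removed). Sars (1.53 ± 0.10), Wars (1.45 ± 0.09), Gars (1.08 ± 0.08) and Aars (0.89 ± 0.09) led the cytosolic set, and Dars fell (-0.92 ± 0.10). No mitochondrial member reached a 2-fold rise, and the difference between the lists was not tested.

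ATF4 with a C/EBP partner binds a composite site written here as TGATGNAA, which was counted in promoters on both strands. The RefSeq promoter table (GRCm38.p6) held 10723 of the tested genes, each with 250 bases before and 50 after its start. The letters occurred in 235 of these promoters (2.19%). They occurred in 45 of 969 promoters (4.64%) of genes called at least 2-fold higher, in 1.96% of those called higher by less, and in 21 of 1273 (1.65%) of those called at least 2-fold lower. In the lists, they were in 5 of 12 promoters of cytosolic tRNA synthetases, 4 of 16 of the stress relay, 3 of 12 of amino acid synthesis and 3 of 16 of amino acid transporters. These lists were chosen with earlier results of these data known, and the difference from all promoters was not tested. A match is a description of letters and shows neither binding nor a cause. The windows below show these letters in capitals, 5′ to 3′ along the gene's strand, for 7 members that rose and whose RefSeq start lay within 50 bases of the annotated gene's start, with the coordinates of the printed bases. Atf3, Nupr1, Aars and Slc7a7, with starts 34706, 5391, 698 and 78 bases apart, also held the letters upstream and rose, and Tars held them and was not called. The list counts also include matches that reach past the start, and the genes and directions of these are not given here.
Fgf21 (chr7:45615606-45615645, minus strand): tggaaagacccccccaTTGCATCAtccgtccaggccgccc
Chac1 (chr2:119351033-119351072, plus strand): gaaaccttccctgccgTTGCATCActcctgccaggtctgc
Asns (chr6:7693210-7693248, minus strand): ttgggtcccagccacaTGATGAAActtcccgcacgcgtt
Got1 (chr19:43524684-43524723, minus strand): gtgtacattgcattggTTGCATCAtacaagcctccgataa
Pycr1 (chr11:120643828-120643867, minus strand): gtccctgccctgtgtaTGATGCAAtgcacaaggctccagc
Slc7a11 (chr3:50443637-50443676, minus strand): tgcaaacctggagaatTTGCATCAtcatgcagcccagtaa
Gars (chr6:55037955-55037994, plus strand): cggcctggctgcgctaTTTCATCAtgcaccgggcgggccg
In these windows the capitals lay 132 bases before the start of Fgf21, 186 before Chac1, 16 before Asns, 95 before Got1, 96 before Pycr1, 40 before Slc7a11 (the cystine importer, 1.08 ± 0.13) and 23 before Gars. They read TTGCATCA in Fgf21, Chac1, Got1 and Slc7a11, TTTCATCA in Gars, TGATGCAA in Pycr1 and TGATGAAA in Asns. Slc7a11 held a second match, TGATGCAA, 59 bases before its start. Slc7a11, Slc7a7 and Tars were chosen after their values were seen.

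Among called genes without overlap between groups and without clone names, places 11 to 20 in each direction at 10 CPM or more came from mixed families. Among the higher were Pappa, a protease that cleaves IGF-binding proteins (3.08 ± 0.17), Ddit3 (2.96 ± 0.12), the AMP deaminase Ampd3 (2.95 ± 0.08), the retinal reductase Dhrs3 (2.89 ± 0.17), the secreted glutathione peroxidase Gpx3 (2.87 ± 0.09), Extl1 (2.85 ± 0.14), Rassf5 (2.79 ± 0.13), the matrix protein Aebp1 (2.77 ± 0.13) and the axonal kinesin Kif1a (2.77 ± 0.10). Ampd3 and Gpx3 were also among the 6 rises with the lowest adjusted p (edgeR). Ampd3 stood at 19.6, 17.1 and 18.1 CPM in the floxed libraries and 142, 140.2 and 142 CPM in the knockout libraries, and Gpx3 at 54.05, 54.5 and 52.3 CPM in the floxed libraries and 367, 367 and 438 CPM in the knockout libraries. Lower were Rgs4, a brake on G protein signalling (-2.58 ± 0.12), the dynein adaptor Bicd1 (-2.52 ± 0.16), the neurofilament Nefm (-2.51 ± 0.16), the mitotic motors Cenpe (-2.48 ± 0.16) and Kif20b (-2.46 ± 0.15), Cenpf (-2.43 ± 0.12), Zfp125 (-2.47 ± 0.13), Mfap3l (-2.42 ± 0.10), the chromatin remodeller Atrx (-2.37 ± 0.14) and the RNA-binding Fmr1 (-2.37 ± 0.13). All 20 kept their direction and call with the trend removed, Nefm at -3.02 and Fmr1 at -1.38. Mest (-2.29 ± 0.08), Flrt2, a cell adhesion gene (-2.25 ± 0.09), and Chml, a Rab escort protein (-2.81 ± 0.11), were among the falls with the lowest adjusted p.

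Antioxidant genes were mostly higher in knockout libraries. Of 26 tested members 18 rose and 3 fell, beside 29.9% and 33.4% of all genes. Gpx4, which reduces lipid peroxides (1.20 ± 0.13), Gpx7 (1.38 ± 0.15), sulfiredoxin Srxn1 (1.04 ± 0.07) and Prdx6 (0.81 ± 0.10) rose, while Sod1 was not called (-0.01 ± 0.08). With the trend removed 13 were higher and 7 lower. Among genes that move NADH, lactate and pyruvate, 10 of 17 tested members rose and 1 fell (10 higher and 2 lower with the trend removed). The lactate exporter Slc16a3 rose from 2.29 ± 0.468 to 12.8 ± 3.49 CPM, and Nmnat3, an NAD-making enzyme, rose from 5.35 ± 0.336 to 16.9 ± 0.968 CPM. Mpc1, a subunit of the mitochondrial pyruvate carrier, rose (0.75 ± 0.10). In the pentose phosphate route 8 of 16 rose and 4 fell (6 higher and 3 lower with the trend removed): transketolase Tkt (1.23 ± 0.11) and H6pd (1.11 ± 0.08) rose and G6pdx, its first cytosolic enzyme, fell (-0.74 ± 0.08).

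Regulators and shapers of mitochondria showed no common direction. For biogenesis, 7 of 15 tested members rose and 6 fell (4 higher and 5 lower with the trend removed): the coactivator Ppargc1a stood at 46.6, 44.7 and 48.9 CPM in the floxed libraries and 19.1, 21.2 and 18.6 CPM in the knockout libraries, and Gabpa (-1.41 ± 0.10) and Sirt1 (-1.55 ± 0.10) fell as well, while the nuclear receptors Esrrg (1.28 ± 0.18) and Ppard (1.01 ± 0.09) rose. In mitochondrial DNA maintenance and expression 9 of 33 rose and 11 fell (12 higher and 10 lower with the trend removed). As reported, 27.3% rose and 33.3% fell, near the 29.9% and 33.4% of all genes. Trmt10c (-1.20 ± 0.15) and Pnpt1 (-1.22 ± 0.09), which process and degrade mitochondrial RNA, were the furthest down and Top1mt (0.98 ± 0.15) was the furthest up. In dynamics and cristae 5 of 18 rose (8 without knockout replicate 2) and 7 fell (6 higher and 5 lower with the trend removed): the fission dynamin Dnm1l (-1.19 ± 0.11) and the protease Yme1l1 (-1.51 ± 0.11) fell and Chchd6 rose (0.87 ± 0.14). Among carriers 19 of 41 tested (47 listed) rose and 7 fell, or 4 fell without floxed replicate 2 (15 higher and 8 lower with the trend removed). Slc25a33, a pyrimidine nucleotide carrier, rose from 3.62 ± 0.156 to 12.999 ± 1.34 CPM, the citrate carrier Slc25a1 rose from 24.1 ± 0.888 to 59.7 ± 6.28 CPM, and Slc25a39, a glutathione carrier, rose from 111 ± 3.75 to 242 ± 40.3 CPM. The adenine nucleotide carrier Slc25a5 (-0.07 ± 0.09) and the phosphate carrier Slc25a3 (0.12 ± 0.08) were not called.

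Genes of lysosome acidification and autophagy leaned upward. For the vacuolar ATPase, the proton pump of lysosomes, 11 of 16 tested members (22 listed) rose and 0 fell, with a median of 0.72. Its members Atp6v0b (1.01 ± 0.12), Atp6v1f (0.84 ± 0.10), Atp6v0d1 (0.82 ± 0.12) and Atp6v1b2 (0.82 ± 0.08) moved by similar amounts. Removing the trend left 13 members higher and 2 lower, and the median at 0.39. Of 28 autophagy genes 14 rose and 4 fell (14 higher and 6 lower with the trend removed). The cargo receptor Sqstm1 stood at 367, 355 and 370.2 CPM in the floxed libraries and 1024, 905 and 1188 CPM in the knockout libraries, and Bnip3, a mitophagy receptor, rose (1.19 ± 0.10). Tax1bp1, another receptor, fell (-1.20 ± 0.08). For the proteasome, 8 of 37 tested members (39 listed) rose and 9 fell, with a median of 0.02, and 14 rose without knockout replicate 2. Removing the trend left 6 members higher and 18 lower, and the median at -0.19. Cytosolic heat shock proteins fell more often than they rose (8 and 4 of 17; 11 and 1 with the trend removed), led by Hsp90aa1, which stood at 962, 944 and 992 CPM in the floxed libraries and 268, 321 and 288 CPM in the knockout libraries, Dnaja1 (-1.52 ± 0.10) and Hsph1 (-1.03 ± 0.11).

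**Figure D4:**
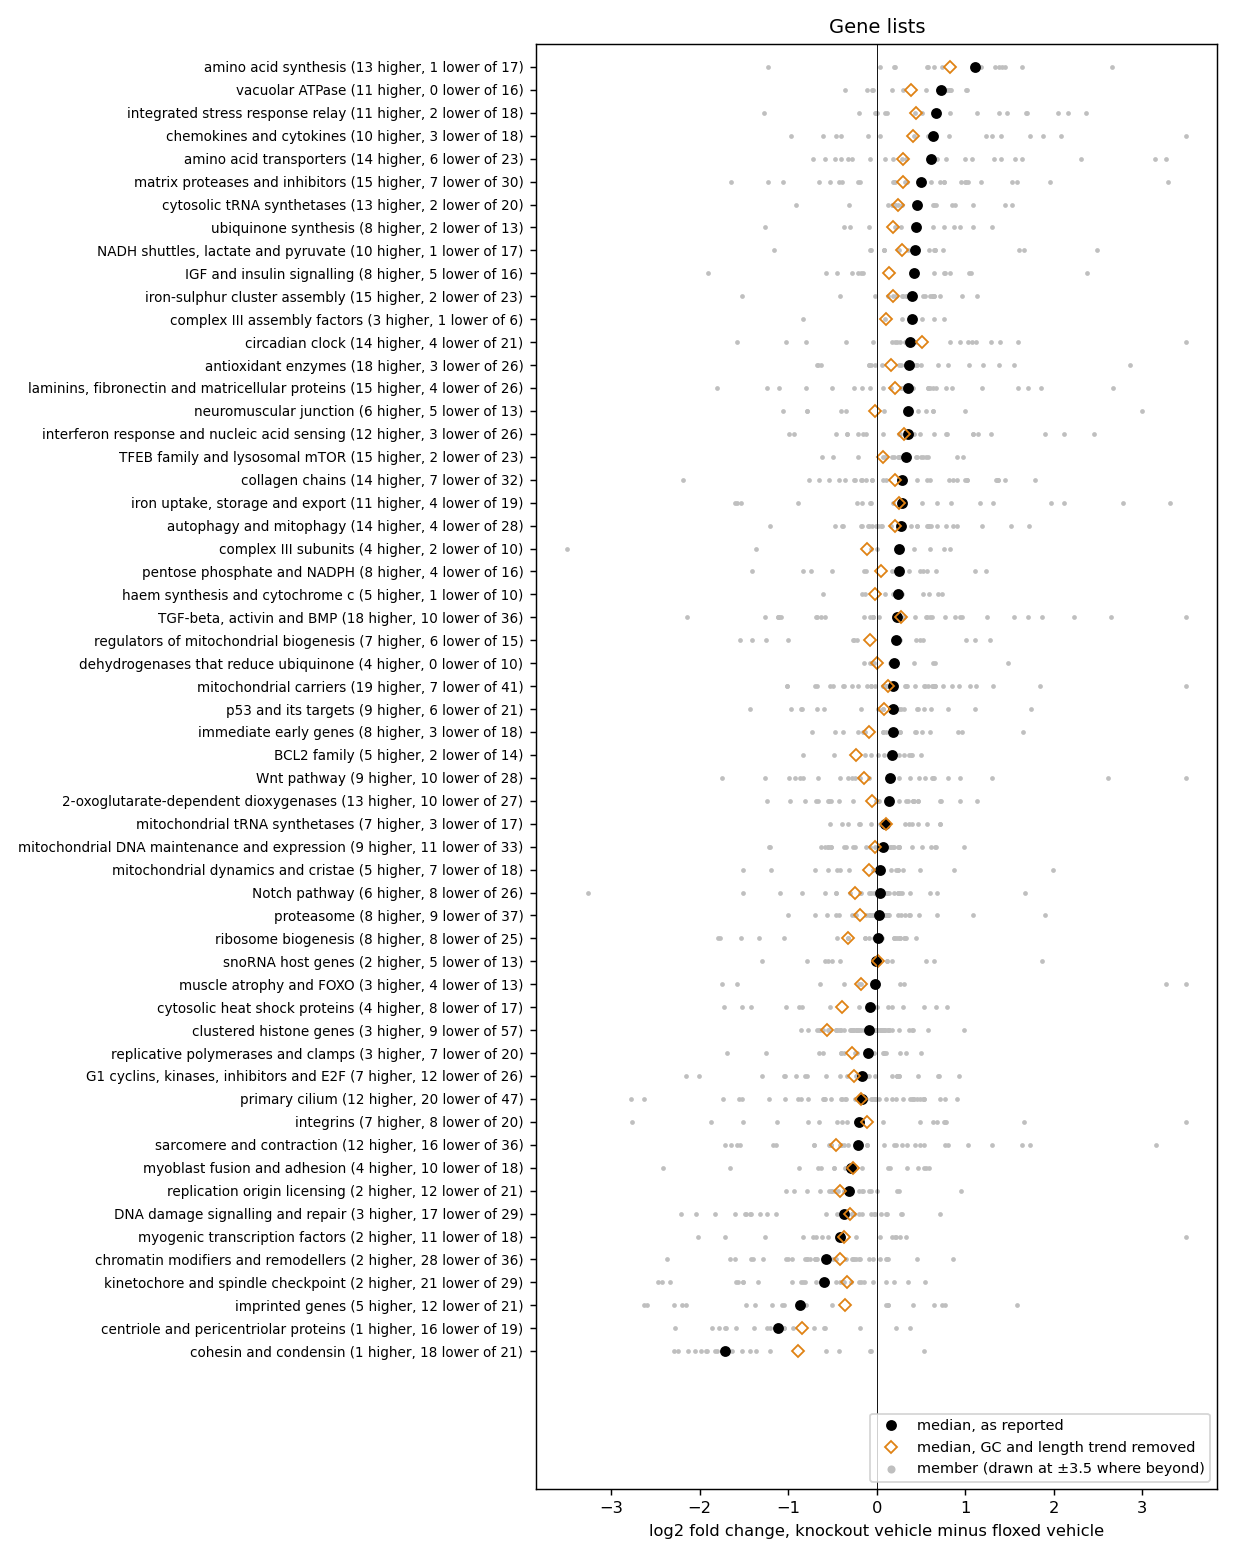
Log2 fold changes of the members (grey points) of 57 gene lists, with each list's median as reported (black) and with the GC and length trend removed (open diamonds); labels give members called higher and lower of those tested. Amino acid synthesis (median 1.11) and the vacuolar ATPase (0.72) lie at the top, and centriole proteins (-1.12) and cohesin and condensin (-1.72) at the bottom.

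The ring complexes that hold and compact chromosomes had the lowest median of the 57 lists. Of 21 tested members 1 rose and 18 fell, 16 of the falls being at least 2-fold, with a median of -1.72; 33.4% of all tested genes fell. The cohesin core gene Smc3 stood at 61.6, 58.96 and 65.1 CPM in the floxed libraries and 10.9, 14.4 and 12.4 CPM in the knockout libraries. The condensin core gene Smc4 fell from 198 ± 10.1 to 47.5 ± 6.01 CPM, the cohesin loader Nipbl fell from 241 ± 12.6 to 60.8 ± 11.1 CPM, and the acetyltransferases Esco1 (-2.24 ± 0.13) and Esco2 (-2.14 ± 0.15) fell. The condensin subunits Ncaph (-0.06 ± 0.08) and Ncapd2 (-0.08 ± 0.09) were not called. Removing the trend left 20 of 21 members lower, Ncaph and Ncapd2 included, and the median at -0.89. At the kinetochore, 2 of 29 tested members rose and 21 fell (2 higher and 16 lower with the trend removed), with Knl1 (-2.33 ± 0.14) and Ttk (-1.57 ± 0.11) behind Cenpe and Cenpf. Centriole and pericentriolar genes fell in 16 of 19 cases, among them Akap9 (-2.29 ± 0.11), Cenpj (-1.86 ± 0.13), Pcm1 (-1.78 ± 0.12) and Sass6 (-1.71 ± 0.12), and 17 were lower with the trend removed.

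Origin licensing genes fell more often than they rose, and polymerase genes fell about as often as all genes. Of 21 origin licensing genes 12 fell and 2 rose (1 higher and 15 lower with the trend removed), with a median of -0.32: Mcm4 (-0.94 ± 0.09), Orc2 (-0.79 ± 0.11) and Cdc6 (-0.54 ± 0.09) fell and the loader Cdt1 rose from 65.3 ± 2.50 to 127 ± 14.1 CPM. Of 20 polymerase and clamp genes 7 fell (35%, beside 33.4% of all genes) and 3 rose (1 without any one of the floxed libraries), and 2 were higher and 11 lower with the trend removed, with Pola1 (-1.70 ± 0.12), Rfc1 (-1.25 ± 0.09) and Pcna (-0.61 ± 0.10) among the falls. Among G1 regulators, 7 of 26 tested members rose and 12 fell (4 higher and 14 lower with the trend removed). Cyclin E2 (Ccne2) stood at 44.04, 39.8 and 42.1 CPM in the floxed libraries and 7.78, 11.5 and 8.87 CPM in the knockout libraries, and E2f2 (-2.01 ± 0.12), E2f8 (-1.04 ± 0.10) and Cdk6 (-1.29 ± 0.10) fell. The inhibitor Cdkn1a was not called (-0.08 ± 0.12), and Cdkn1c, another inhibitor, fell (-1.05 ± 0.13). Cdkn1a was called lower once the trend was removed (-0.59). Clustered histone genes were mostly not called (3 rose and 9 fell of 57 tested, 67 listed), but 36 were called lower with the trend removed. Leaving out knockout replicate 2 gave 13 rises and 5 falls, and leaving out floxed replicate 2 gave 1 and 5. Histone genes are near-identical copies of each other, and no label or note says how reads shared between them were counted.

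DNA repair and chromatin genes fell more often than they rose. Of 29 tested members 3 rose and 17 fell (4 higher and 17 lower with the trend removed), 11 falls being at least 2-fold, among them Fancm (-2.21 ± 0.11), Rif1 (-2.04 ± 0.12), the damage kinase Atm (-1.83 ± 0.11) and Brca2 (-1.61 ± 0.12). Parp1 was not called (-0.07 ± 0.08). Of 36 chromatin modifiers 28 fell and 2 rose, and 29 and 2 were called with the trend removed. Setd2, which methylates histone H3 along genes, fell from 210.3 ± 4.99 to 66.5 ± 10.2 CPM, and Chd1 (-1.60 ± 0.09), Chd9 (-1.42 ± 0.10) and the Polycomb gene Suz12 (-1.40 ± 0.11) fell. Arid1a (-0.04 ± 0.07) and Smarca4 (-0.09 ± 0.09), parts of the BAF remodeller, were not called. In the primary cilium list 20 of 47 fell and 12 rose (9 higher and 23 lower with the trend removed), 7 falls and 0 rises being at least 2-fold: Ift74 (-1.73 ± 0.13), Rpgrip1l (-1.56 ± 0.14) and the ciliary dynein Dync2h1 (-1.52 ± 0.13) fell. Ribosome biogenesis had 8 up and 8 down of 25 (32% each, near the 29.9% and 33.4% of all genes). The rises numbered 3, 4, 4 and 5 without floxed replicate 1, 2 or 3 or knockout replicate 3. Its 5 changes of at least 2-fold were all falls: Ncl (-1.79 ± 0.09), Nop58 (-1.78 ± 0.08), Npm1 (-1.54 ± 0.11), Dkc1 (-1.33 ± 0.09) and Wdr43 (-1.05 ± 0.09). Removing the trend left 18 of the 25 lower. The targets of p53 had 9 rises and 6 falls among 21 genes (9 higher and 6 lower with the trend removed), with a median of 0.18.

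More myogenic regulators fell than rose, where 33.4% of all genes fell and 29.9% rose. Of 18 tested members (19 listed) 2 rose and 11 fell, with a median of -0.41; with the trend removed 2 were higher and 14 lower. Without knockout replicate 2, 7 members rose. Mef2c, which drives muscle gene expression with the MyoD family, stood at 179, 162 and 173 CPM in the floxed libraries and 42.01, 45.8 and 39.1 CPM in the knockout libraries. Mef2a fell from 335 ± 8.38 to 102 ± 16.8 CPM and Eya4, a transcriptional cofactor, fell from 68.5 ± 7.05 to 28.6 ± 3.58 CPM. Among fusion and adhesion genes, 4 of 18 tested members (19 listed) rose and 10 fell (4 higher and 10 lower with the trend removed). Mymx, the small membrane protein that opens fusion pores, stood at 13.8, 13.1 and 16.2 CPM in the floxed libraries and 2.19, 2.89 and 2.996 CPM in the knockout libraries. Jam2 fell from 65.1 ± 1.82 to 20.6 ± 2.05 CPM and M-cadherin (Cdh15) fell from 190.0 ± 15.3 to 103 ± 14.1 CPM, a fall that was -1.42 with the trend removed. In each of these 6 genes the groups did not overlap, beside 66.7% of all tested genes.

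Sarcomere genes moved in both directions, as did all genes, of which 29.9% rose and 33.4% fell. Of 36 tested members 16 fell and 12 rose (10 higher and 21 lower with the trend removed). Embryonic myosin Myh3 stood at 732, 616 and 753 CPM in the floxed libraries and 266, 198 and 178 CPM in the knockout libraries, while adult fast myosin Myh4 stood at 11.2, 8.29 and 9.74 CPM in the floxed libraries and 32.6, 31.2 and 27.2 CPM in the knockout libraries. Ckmt2, the mitochondrial creatine kinase of muscle, stood at 7.76, 6.87 and 5.65 CPM in the floxed libraries and 63.8, 56.2 and 59.96 CPM in the knockout libraries, an 8.89-fold rise. Myoglobin (Mb) rose from 35.9 ± 0.358 to 119.5 ± 13.9 CPM. Among members chosen after their values were seen, nebulin (Neb; -1.58 ± 0.09), cardiac actin Actc1 (-1.54 ± 0.08) and Myh1 (-1.18 ± 0.12) fell and skeletal actin Acta1 (0.80 ± 0.10) and cytosolic creatine kinase Ckm (1.30 ± 0.14) rose. The light chains Myl1 (0.08 ± 0.14) and Mylpf (-0.11 ± 0.11) were not called. Ttn was at -1.65 ± 0.12, and at -0.39 with the trend removed. At the neuromuscular junction 6 of 13 rose and 5 fell (5 higher and 5 lower with the trend removed): Dok7 (-1.06 ± 0.13), Musk (-0.79 ± 0.08) and utrophin (Utrn, -0.79 ± 0.07) fell and Chrng, the embryonic receptor subunit, rose (0.64 ± 0.09). Of 13 atrophy and FOXO genes 3 rose and 4 fell (2 higher and 5 lower with the trend removed), and among their ubiquitin ligases Fbxo32 (-1.58 ± 0.12) and Fbxo30 (-1.75 ± 0.10) fell and Fbxo40 rose (3.27 ± 0.16).

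In growth factor pathways, members of each route moved in both directions. In the TGF-β family, 18 of 36 tested members rose and 10 fell (18 higher and 12 lower with the trend removed): the ligand Tgfb1 stood at 19.8, 18.1 and 17.2 CPM in the floxed libraries and 60.3, 53.3 and 66.3 CPM in the knockout libraries, the latent binding protein Ltbp4 rose from 29.9 ± 1.47 to 87.7 ± 15.6 CPM, and the activin antagonist Fstl3 rose from 2.74 ± 0.267 to 10.04 ± 0.720 CPM, while the receptors Tgfbr1 (-2.14 ± 0.14) and Acvr2a (-1.26 ± 0.11) fell. Smad4 was not called (-0.08 ± 0.09). The largest rises of the list, chosen after their values were seen, were in members under 6 CPM: Bmp4 (4.74 ± 0.39), Bmp6 (2.64 ± 0.35) and the BMP antagonist Nog (2.23 ± 0.22). In the IGF route 8 of 16 rose and 5 fell, or 3 fell without floxed replicate 1 or 2 or knockout replicate 1 (8 higher and 4 lower with the trend removed). Igfbp7 stood at 4.55, 4.77 and 3.60 CPM in the floxed libraries and 21.3, 22.97 and 23.04 CPM in the knockout libraries, the ligand Igf2 rose from 57.9 ± 6.03 to 99.1 ± 29.3 CPM and Igfbp5 rose from 326 ± 7.16 to 579.9 ± 3.04 CPM, while the receptor Igf1r was not called (-0.16 ± 0.07). In the Notch route 6 of 26 tested (28 listed) rose and 8 fell (4 higher and 14 lower with the trend removed): the ligand Dll1 (-1.51 ± 0.10) and the protease Adam10 (-1.10 ± 0.08) fell, and Notch1 was not called (-0.17 ± 0.08). In the Wnt route 9 of 28 tested (30 listed) rose and 10 fell (8 higher and 12 lower with the trend removed): Apc (-1.75 ± 0.08) and Lef1 (-1.26 ± 0.10) fell and the receptor Fzd4 rose (1.30 ± 0.11). Over all genes 29.9% rose and 33.4% fell. The shares were 32.1% and 35.7% for Wnt, 23.1% and 30.8% for Notch, 50% and 27.8% for TGF-β and 50% and 31.25% for IGF.

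Among tested matrix genes, each list but the integrins had more rises than falls. Many listed members did not pass the filter on low counts, and passing can itself come from a high level in a single group. Of 32 tested collagen chains (44 listed) 14 rose and 7 fell, 8 and 1 of them at least 2-fold (12 higher and 9 lower with the trend removed). Col4a5 (1.79 ± 0.17), Col6a1 (1.45 ± 0.10), Col16a1 (1.37 ± 0.13) and Col1a1, which rose from 21.2 ± 1.76 to 54.4 ± 8.25 CPM, led the rises, and Col18a1 was not called (-0.06 ± 0.08). Matrix proteases and inhibitors rose in 15 of 30 tested cases (49 listed) and fell in 7 (16 higher and 8 lower with the trend removed). Mmp19 stood at 3.37, 4.17 and 3.96 CPM in the floxed libraries and 34.98, 38.5 and 39.1 CPM in the knockout libraries, the gelatinase Mmp2 rose from 15.4 ± 0.649 to 46.5 ± 4.94 CPM and the inhibitor Timp3 rose from 3.996 ± 0.593 to 11.6 ± 0.821 CPM. Among laminins and matricellular proteins, 15 of 26 tested members (32 listed) rose and 4 fell (14 higher and 6 lower with the trend removed): Fbln5 (2.67 ± 0.12), Thbs2 (1.85 ± 0.12), biglycan (Bgn, 1.71 ± 0.08) and Ccn2 (1.60 ± 0.10) rose and Ogn fell (-1.81 ± 0.15). Without knockout replicate 2, 7 of these members fell. Integrin subunits were divided, 7 up and 8 down of 20 tested (26 listed), 4 of them up without floxed replicate 2 (7 higher and 8 lower with the trend removed), with Itgb5 up (1.67 ± 0.10) and Itga4 (-1.87 ± 0.12), Itgb4 (-1.51 ± 0.10) and Itgb6 (-1.13 ± 0.12) down.

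Secreted immune signals were few and mostly low. Only 18 of 47 listed chemokines and cytokines passed the filter on low counts, and 10 of those rose and 3 fell (9 higher and 3 lower with the trend removed). Passing can itself come from a high level in one group, so counts over lists with many untested members, such as this one, the collagens and the proteases, are not set against all genes. The monocyte chemokine Ccl7 stood at 0.255, 0.258 and 0.222 CPM in the floxed libraries and 11.1, 8.83 and 10.4 CPM in the knockout libraries. Csf1, the macrophage growth factor, stood at 1052, 1047 and 1054 CPM in the floxed libraries and 1773, 1853 and 1940.0 CPM in the knockout libraries. Il11 (1.88 ± 0.25), Ccl2 (2.08 ± 0.36) and Lif (1.24 ± 0.24), chosen after their values were seen, rose from under 2 CPM. Classical antigen presentation genes rose: H2-K1 stood at 3.88, 3.78 and 3.69 CPM in the floxed libraries and 19.8, 20.2 and 22.4 CPM in the knockout libraries, H2-D1 rose from 5.61 ± 0.626 to 24.3 ± 3.15 CPM and their partner B2m rose from 90.5 ± 2.22 to 193 ± 24.9 CPM. H2-K1 and H2-D1 are close copies, so reads may be shared between them. In the interferon list as a whole 12 of 26 tested members (33 listed) rose and 3 fell (11 higher and 5 lower with the trend removed), with Tbk1 among the falls (-0.99 ± 0.10). Irf9 was not called (-0.15 ± 0.14).

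Most clock genes rose and most imprinted genes fell, where 29.9% of all genes rose and 33.4% fell. Of 21 clock genes 14 rose and 4 fell (11 higher and 4 lower with the trend removed), with a median of 0.38 (0.51 with the trend removed). The output factor Dbp (1.60 ± 0.17), the repressors Per1 (1.40 ± 0.09) and Cry2 (1.12 ± 0.10) and Nfil3 (1.30 ± 0.10) rose, and Clock, their activator, fell (-1.57 ± 0.12). Its partner Arntl was not called (-0.05 ± 0.12). Of 21 tested imprinted genes (22 listed) 12 fell and 5 rose (5 higher and 12 lower with the trend removed), 10 and 1 of them at least 2-fold, and the median was -0.87 (-0.35 with the trend removed). Mest, a paternally expressed gene, stood at 1371, 1365 and 1416 CPM in the floxed libraries and 306, 286 and 259 CPM in the knockout libraries. Meg3 fell from 14.8 ± 3.40 to 3.22 ± 0.399 CPM. Grb10, an adaptor of insulin and IGF receptors, rose from 57.1 ± 1.26 to 172 ± 5.23 CPM.

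**Figure D5:**
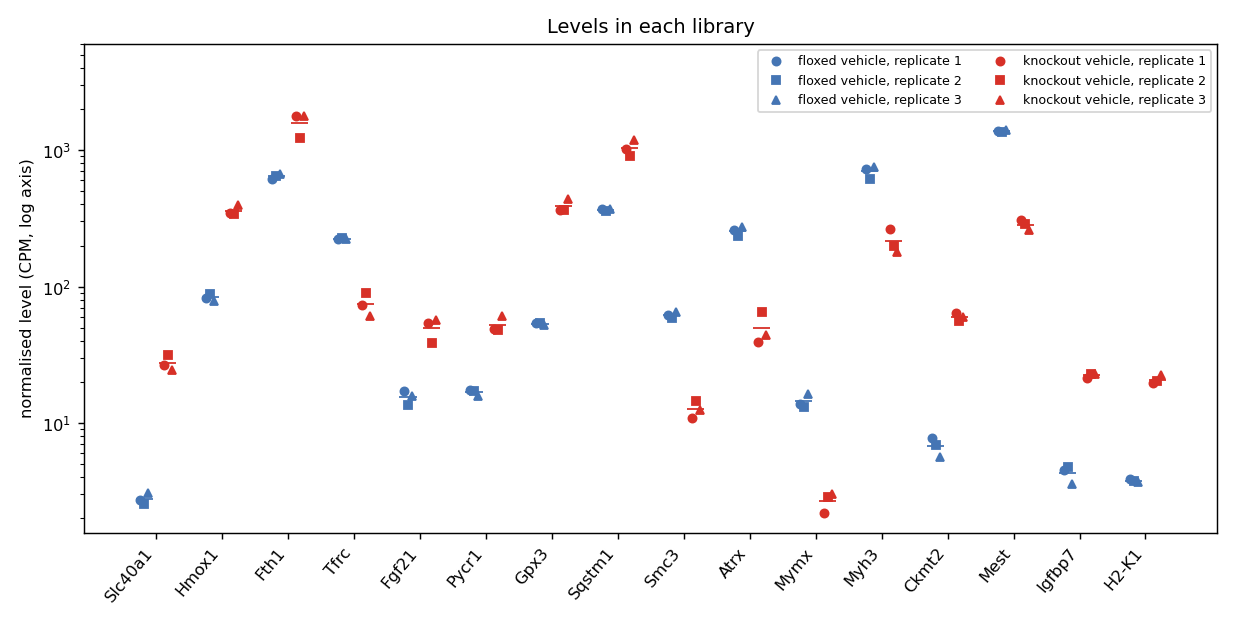
Level in CPM (log axis) of 16 genes in each of the 6 libraries, floxed in blue and knockout in red, with short lines for the group means and a marker shape for each replicate. For every gene shown the knockout libraries lie wholly above or wholly below the floxed ones, as for 66.7% of all tested genes.

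A few genes were seen in one group only. Lcn2, which encodes a siderophore-binding lipocalin, had 0 counts in all floxed libraries and 22, 11 and 17 counts in the knockout libraries, at least 5.33-fold higher against a floor of 3 counts per library. Hmx3 (20, 7 and 13 counts) and the endothelin receptor Ednrb (11, 10 and 9 counts) were also at 0 in the floxed libraries, at least 4.28-fold and 3.20-fold higher. Gm8267 had 18, 17 and 12 counts in the floxed libraries and 0 in the knockout libraries. These floors cover counting error only, and the genes were chosen for this pattern.

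Marker genes were used to check the cell type. The summed level of 8 myoblast markers was 4242 to 4334 CPM in floxed and 4580.5 to 5127 CPM in knockout libraries, in CPM of the unnormalised library total. Of these 8 markers 3 rose and 2 fell, with M-cadherin (Cdh15) the furthest down at -0.88. With the trend removed 3 were higher and 3 lower. Pax7, the muscle stem cell factor, stood at 317, 322 and 325 CPM in the floxed libraries and 376, 380.4 and 399.6 CPM in the knockout libraries, and desmin (Des) rose from 694 ± 9.64 to 936 ± 146 CPM. Neither was called with the trend removed. Markers of other cells were low apart from those of smooth muscle and pericytes, and several rose. Of 8 fibroblast markers 4 were tested and 3 of those rose. Their sum was 8.28 to 9.95 CPM in floxed and 27.8 to 28.6 CPM in knockout libraries, with Cd34 the largest rise (2.30 ± 0.12). Dpt, Pi16, Tcf21 and Dcn stayed under 1 CPM in each library, with Tcf21 at 0. Smooth muscle and pericyte markers summed to 513 to 551 CPM in floxed and 959 to 1163 CPM in knockout libraries, mainly through Acta2 (1.03 ± 0.10) and Tagln (1.96 ± 0.14), with the defining marker Myh11 under 1 CPM. Of 5 tested members of this list (6 listed) 3 rose and 1 fell (4 higher and 0 lower with the trend removed). Leukocyte markers summed to 8.94 to 10.1 CPM in floxed and 16.8 to 17.9 CPM in knockout libraries, with Ptprc, Cd3e and Itgam under 1 CPM. Endothelial markers summed to 5.66 to 7.09 CPM in floxed and 10.9 to 11.5 CPM in knockout libraries, with Cdh5, Kdr, Tek, Emcn and Cldn5 under 1 CPM. Adipocyte markers summed to 1.79 to 2.29 CPM in floxed and 2.76 to 4.09 CPM in knockout libraries. Schwann cell markers (4.28 to 5.36 CPM in floxed and 3.58 to 5.01 CPM in knockout libraries) and epithelial markers (3.37 to 4.02 CPM in floxed and 3.19 to 3.97 CPM in knockout libraries) overlapped between groups. The part of other cell types in the matrix, cytokine and antigen presentation results was not tested. In bulk RNA, fewer cells of a type and less RNA per cell cannot be told apart.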

How the data were processed

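The values are raw read counts per gene, deposited by the authors as 1 table of 55536 rows for 9 libraries, with 0 columns left without a sample. The submitters' processing notes name the aligner STAR 2.7.0e, GRCm38 (mm10), DESeq2 1.26.0, and for reads cutadapt, Trim Galore 0.6.0 and FastQC. Which counter was used, with which strand setting and annotation, is not stated there. All row identifiers were found in GENCODE M21, which supplied symbols, classes, coordinates and the GC content and length of each gene's longest basic transcript (protein-coding where the gene has one).

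The counts were tested with edgeR 4.0.16 (R 4.3.3) on all 9 libraries with 3 groups: edgeR's own filter on low counts, TMM scaling, the quasi-likelihood test of knockout vehicle minus floxed vehicle with 6 residual degrees of freedom, and Benjamini-Hochberg adjustment over 15720 genes. A gene was called at an adjusted p under 0.05. SE is the log2 fold change divided by the root of the F statistic. All groups shared 1 estimate of spread. The scripts were tested on simulated data. Shares of counts were compared by two-sided exact permutation tests. The GC and length trend was removed per library with natural splines of 5 degrees of freedom. Alternatives were DESeq2 1.42.0, limma 3.58.1 (voom), other scalings, filters and gene sets, and each library left out in turn.

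Named genes were Uqcrfs1 and its 3 nearest tested neighbours per side, the 8 largest CPM changes per direction, places 11 to 20 by fold change at a mean of at least 10 CPM, the 6 lowest adjusted p per direction, and per list up to 5 called members at a mean of at least 5 CPM and 2 uncalled ones, with lists of up to 12 named whole. The CPM changes and the places were ranked among called genes without overlap between the groups, the places also without clone names. Members and lists were chosen with earlier results of these data known. Some genes the rule selects are not reported here.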

Additional observations from a re-analysis of the deposited data

How the results depend on the processing

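The count of genes at least 2-fold lower was 2483 as reported, 1649 among protein-coding genes only (fewer genes tested) and 1366 with the GC and length trend removed. Leaving out each library in turn gave 4138 to 5398 genes higher, 4812 to 5596 lower, 1259 to 1502 at least 2-fold higher and 2327 to 2845 at least 2-fold lower, each highest without knockout replicate 2. Over the 17 alternatives the split stayed between 39.2% and 50.4% higher among called genes. Of 296 named genes, those that reversed did so with the trend removed: Uqcr10 (-0.29), Uqcr11 (-0.38), Exoc2 (0.17), mt-Nd1 (0.96), mt-Nd2 (0.47), mt-Co1 (0.79), mt-Co2 (0.75) and mt-Co3 (0.63), the last pair uncertain at their low counts. A further 13 were then no longer called, of which Ahnak (0.11), Des (-0.10), Dhodh (-0.11), Pax7 (-0.04), Rn7sk (-0.03) and Uqcc2 (-0.09) had the opposite sign as well. Outside that setting, Dusp22 and Uqcc2 lost their calls. With ribosomal RNA loci taken out of the library total, the share of fibroblast markers differed by 0.00215% of counts (0.00192% as reported) and that of leukocyte markers by 0.000894% (0.000788%). Counts of rises or falls moved in several lists when 1 library was left out. Many of these were counts of 4 or fewer, but larger ones moved too. Proteasome rises went from 8 to 14 without knockout replicate 2, and ribosome biogenesis rises from 8 to 3 without floxed replicate 1. No paired analysis was possible because the libraries carry running labels and the groups share no replicate numbers. Genes under about 1 CPM rest on few counts per library, and differences there were the least precise. The cause of the GC trend was not tested.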

Other observations

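Several gene groups outside the accounts above also moved. For the TFEB family and the lysosomal mTOR machinery, 15 of 23 tested members rose and 2 fell, none by 2-fold, with the GATOR1 subunit gene Nprl2 the furthest up (0.91 ± 0.11) and the tuberous sclerosis gene Tsc2 at 0.56 ± 0.08. With the trend removed 9 were higher and 2 lower. Immediate early genes rose in 8 of 18 tested cases (20 listed) and fell in 3, but 5 were higher and 7 lower with the trend removed: Ier3 stood at 6.39, 5.93 and 6.62 CPM in the floxed libraries and 20.4, 17.9 and 21.2 CPM in the knockout libraries, Klf4 (0.96 ± 0.12) and the AP-1 gene Fosl2 (0.91 ± 0.08) rose, Egr3 fell (-0.73 ± 0.11) and Egr1 was not called (-0.16 ± 0.08). Among oxygen- and 2-oxoglutarate-dependent dioxygenases 13 of 27 rose and 10 fell (7 higher and 9 lower with the trend removed). The collagen prolyl hydroxylases P4ha2 (1.13 ± 0.12) and P4ha1 (0.72 ± 0.08) rose, and the histone demethylase Kdm6a fell (-1.24 ± 0.11). In the BCL2 family 5 of 14 tested members (16 listed) rose and 2 fell, but 2 were higher and 8 lower with the trend removed. Bcl2 itself fell (-0.83 ± 0.11). The rises numbered 3, 3, 3, 3, 8 and 2 when floxed replicates 1, 2 and 3 and knockout replicates 1, 2 and 3 were left out in turn. Gas5, a host of small nucleolar RNAs, fell (-0.79 ± 0.11).

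Besides the composite site described above, 8 other short motifs were counted in the same promoter windows on both strands, as descriptions of letters. The myogenic E box CAGCTG was in 19.8% of promoters of genes at least 2-fold higher, 15.6% of those at least 2-fold lower and 15.2% of all. The cell cycle element TTTGAA was in 10.0%, 14.8% and 11.6%, and the E2F site TTTGGCGC in 0.31%, 1.10% and 0.979%. The hypoxia core ACGTG was in 24.0%, 24.7% and 25.7%, and the palindrome CACGTG, which contains it, in 9.91%, 9.58% and 10.2%. The antioxidant core TGACNNNGC was in 15.8%, 15.7% and 14.8%, the CCAAT box in 36.6%, 41.0% and 38.5%, and the X box in 0.103%, 0.314% and 0.336%. Promoter GC differed little between the classes (medians 60.3% to 62.7%), unlike transcript GC.

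By chromosome, median fold changes ran from -0.30 (chromosome X) and -0.26 (chromosomes 1 and 13) to 0.16 (chromosome 15), and for the nuclear chromosomes the range was -0.22 to -0.07 with the trend removed.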
